A study of Mus musculus with 8 samples.

Results

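Serotonin receptor genes were examined in the cortex of mice with tauopathy, with and without a mutant β1-adrenergic receptor. The receptors were chosen by gene symbol: Htr1a, Htr1b, Htr1f, Htr2a, Htr2c, Htr3a, Htr4, Htr5a and Htr7 are 9 of the 54532 genes in the count table, each with 1 row. The table also lists 5 other serotonin receptor genes (Htr1d, Htr2b, Htr3b, Htr5b and Htr6), whose values are given beside them. Cortical RNA came from 4 PS19 mice and 4 Adrb1-A187V;PS19 mice, 8 mo old, of the C57BL/6 strain and singly housed, with 1 library per mouse. All 8 mice carried the PS19 transgene, a mutant human tau under the mouse prion protein promoter, and the second group also carried 1 mutant and 1 normal copy of Adrb1, made by CRISPR/Cas9 knock-in. No mouse without the tau transgene was analysed here, so the values describe the Adrb1 mutation on a tau background and not the effect of tau. The comparison asks whether the mutation changed cortical gene expression in PS19 mice.

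The libraries held 14653222 to 21223754 counts. Levels are given as CPM, each mouse's counts scaled to its library size with TMM factors, and 17195 genes, all 9 receptor genes among them, passed a filter on low counts and were tested with edgeR's quasi-likelihood test. Cortical excitatory neuron markers were abundant, with Slc17a7, the vesicular glutamate transporter, at 1074 CPM and Tbr1 at 145.0 CPM on average. Markers of striatal projection neurons were present too, with a summed level of 975.2 to 1936 CPM in PS19 and 1010 to 2175 CPM in Adrb1-A187V;PS19 mice. A summed level of 30.7 to 385.1 CPM in PS19 and 32.0 to 609.7 CPM in Adrb1-A187V;PS19 mice came from markers of the choroid plexus. Adrb1 had a log2 fold change of -0.07 ± 0.09 (SE), which does not check the genotype because the mutation changes 1 amino acid and not the number of reads. In bulk tissue, fewer cells of a type and less RNA per cell cannot be told apart.

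Serotonin reaches the cortex through axons of neurons in the brainstem raphe nuclei. Its receptors fall into families by their signaling: the Htr1 and Htr5 receptors couple to Gi/o proteins and lower cAMP, the Htr2 receptors couple to Gq/11 and activate phospholipase C, the Htr4, Htr6 and Htr7 receptors couple to Gs and raise cAMP, and the Htr3 receptors are cation channels. In the forebrain, Htr2a is known from cortical pyramidal neurons, Htr3a from interneurons of the caudal ganglionic eminence (CGE), Htr1b and Htr4 from striatal projection neurons and Htr2c from the choroid plexus as well as from neurons.

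To compare genes with one another, CPM was divided by the gene length in the table, as CPM per kb. Htr2a, the main target of classical hallucinogens, and Htr2c had the highest levels per length, 7.15 ± 1.48 and 5.66 ± 1.38 CPM per kb (SD, n = 8 mice). Htr5a followed with 4.32 ± 0.507 and Htr1a, the autoreceptor of raphe neurons and a postsynaptic receptor in the forebrain, with 4.10 ± 0.611 CPM per kb. Htr1b, Htr7 and Htr3a lay close together at 3.03 ± 0.770, 2.97 ± 0.346 and 2.61 ± 0.367 CPM per kb. Htr1f had 1.65 ± 0.180 and Htr4, the lowest of the 9, had 0.682 ± 0.251 CPM per kb. The highest and the lowest member thus differed by more than the whole spread of any gene over the mice, which was a fold of at most 2.50, for Htr4.

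Neighbors in this order were compared within each mouse on the log2 scale, over 8 pairs of neighbors, with 2-sided exact permutation tests that flip the signs of the 8 differences. Only pairs at the lower end of the order passed after adjustment. The order was taken from the means of the same 8 mice. These tests weigh the spread between mice and not an error of gene length or read coverage common to every mouse. Htr3a exceeded Htr1f by a mean ratio of 1.57 in 8 of 8 mice and Htr1f exceeded Htr4 by 2.53 in 8 of 8 mice (exact permutation tests, p = 0.0078, the smallest that 8 mice allow, adjusted p = 0.0312 for both). Htr2a was above Htr2c in 7 of 8 mice, by a mean ratio of 1.27 (exact permutation test, p = 0.0234, adjusted p = 0.0625), with the order turned in PS19 mouse m677. Htr2c over Htr5a, Htr1a over Htr1b and Htr7 over Htr3a each had an adjusted exact permutation p of 0.0729. Htr5a was above Htr1a in only 3 of 8 mice, with a mean ratio of 1.06 and an SD of 0.30 on the log2 scale. Htr1b was above Htr7 in 4 of 8 mice, with a mean ratio of 0.999 and an SD of 0.45. Neither pair was thus ordered beyond its spread.

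**Figure D1:**
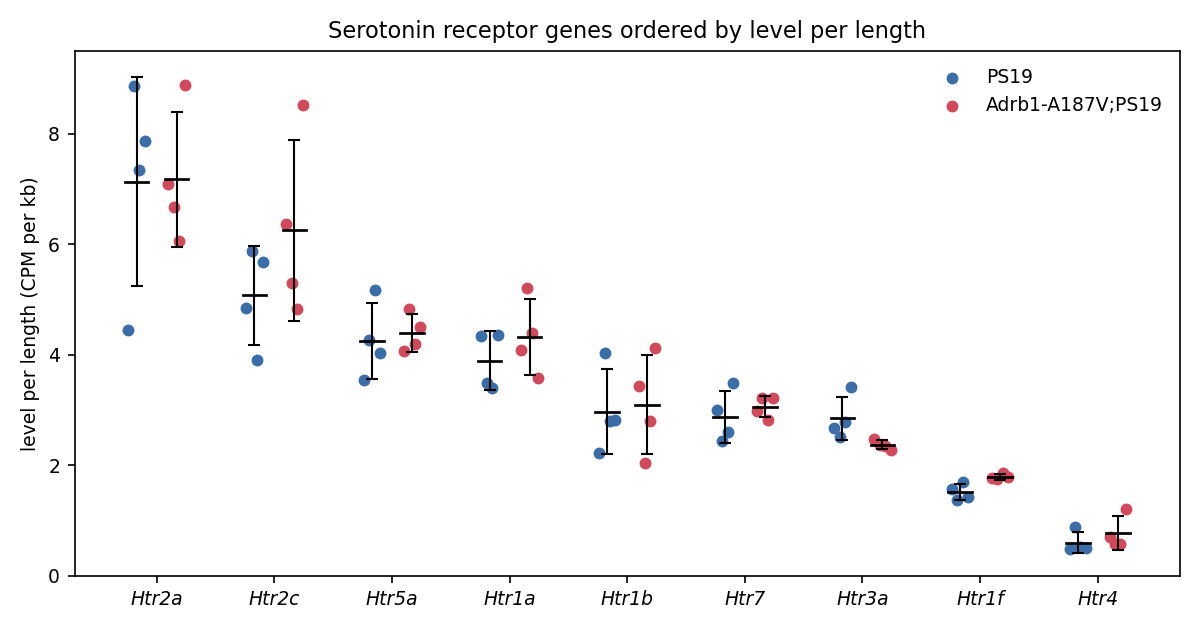
Level per length of the 9 serotonin receptor genes in each mouse, in CPM per kb of gene length on a linear axis. Points are mice, horizontal bars the mean and error bars the SD of 4 mice per genotype; Htr2a and Htr2c lie highest and most spread, and Htr4, with a mean of 0.682, lies lowest.

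The 9 levels per length summed to between 27.1 and 38.1 CPM per kb, the extremes being PS19 mouse m677 and Adrb1-A187V;PS19 mouse m658. The 4 Gi/o-coupled genes held 40.7% ± 2.87 of this sum in PS19 and 41.2% ± 3.43 in Adrb1-A187V;PS19 mice (SD, n = 4 mice each), and the Gq/11-coupled pair Htr2a and Htr2c 38.9% ± 4.07 and 40.1% ± 4.16. The Gs-coupled genes Htr4 and Htr7 held 11.2% ± 1.39 and 11.5% ± 0.299. Htr6, another Gs-coupled gene, is among the 5 receptor genes outside this sum. Its mean of 3.28 CPM per kb exceeded the 2.97 of Htr7, so these shares describe the 9 genes alone. The channel gene Htr3a held 7.47% to 10.2% of the sum in the PS19 mice and 5.99% to 7.83% in the Adrb1-A187V;PS19 mice. Shares of Gi/o, Gq/11 and Gs genes therefore overlapped between the genotypes, and the share of Htr3a overlapped in the range of 7.47% to 7.83%.

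No serotonin receptor gene passed the test between the genotypes. Of the 9 genes, 8 had a log2 fold change above 0 and 1, Htr3a, below 0, with a median of 0.09, where the median of all genes tested was 0.00046 and 50.2% of them were above 0. None had an unadjusted p-value under 0.05, a threshold that 481 of the 17195 genes tested, or 2.80%, passed, 1.42% as higher and 1.37% as lower in Adrb1-A187V;PS19 mice. The smallest were 0.0784 for Htr2c and 0.0869 for Htr3a, and every adjusted p was 0.9996 (quasi-likelihood test of edgeR, Benjamini-Hochberg adjustment over all genes tested). DESeq2's Wald test also gave 0 of the 9 an unadjusted p-value under 0.05, with 1.65% of its 33611 genes passing. In CPM, Htr1f and Htr3a did not overlap between the genotypes, as was so for 2.02% of all genes tested, 176 (1.02%) with higher and 172 with lower levels in Adrb1-A187V;PS19 mice.

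**Figure D2:**
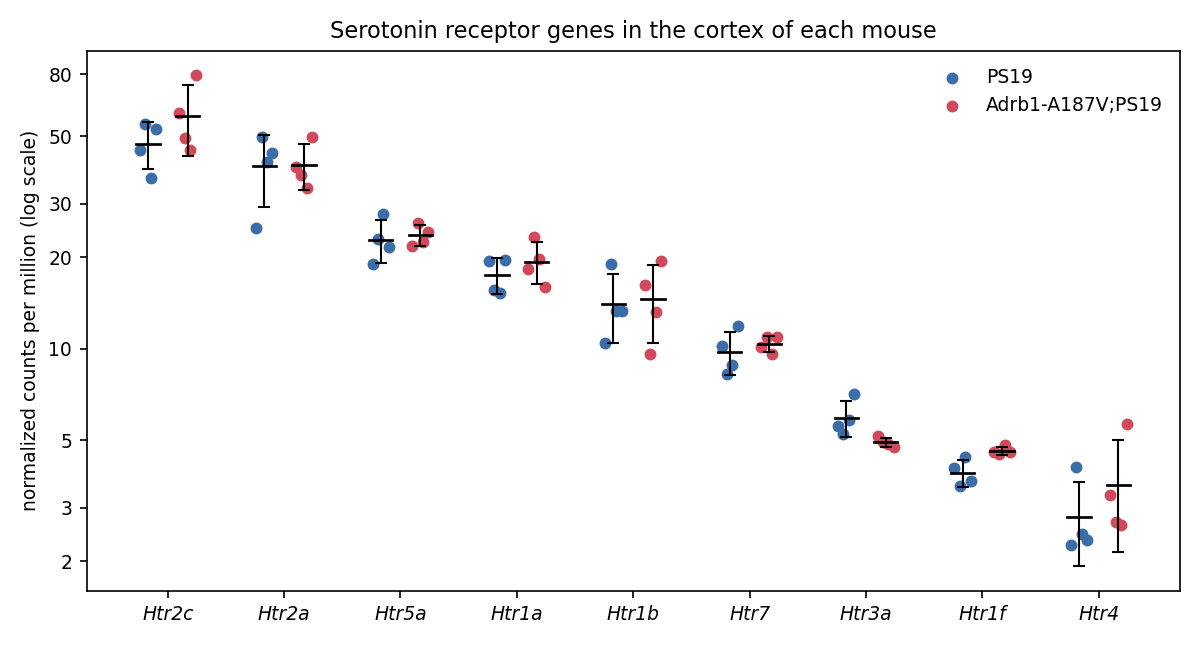
CPM of each receptor gene in each mouse, on a log axis. Points are mice, horizontal bars the mean and error bars the SD of 4 mice per genotype; only Htr1f and Htr3a have genotypes that do not overlap, with Htr1f higher and Htr3a lower in all 4 Adrb1-A187V;PS19 mice.

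Among the Gi/o-coupled receptors, Htr1a (chromosome 13 of GRCm38, 105443639 to 105448122) had 19.5, 15.6, 15.2 and 19.5 CPM in PS19 mice m677, m668, m665 and m659 and 18.3, 23.4, 19.7 and 16.0 CPM in Adrb1-A187V;PS19 mice m671, m661, m660 and m658. The genotypes overlapped, with m661 the highest mouse of all, and the log2 fold change was 0.15 ± 0.12 (SE). Without m661 this value was 0.05. Htr1b (chromosome 9, 81628291 to 81633828), a presynaptic receptor on axon terminals, had 10.5, 19.1, 13.3 and 13.3 CPM in the PS19 mice and 16.2, 9.63, 13.2 and 19.5 CPM in the Adrb1-A187V;PS19 mice, in the same order. Each genotype held 1 mouse above 19 CPM, m668 and m658, and the log2 fold change was 0.06 ± 0.20 (SE). Its sign turned without m677 (-0.05) and without m658 (-0.11). In the annotation, 852 bases of its exons are shared with D430036J16Rik on the other strand, which had at most 77 counts in a mouse; the strand setting of the counting is not named, so some reads of this pair cannot be told apart.

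Htr1f (chromosome 16, 64924729 to 65105854), a receptor targeted by migraine drugs, had 4.04, 3.52, 4.39 and 3.67 CPM in the PS19 mice and 4.56, 4.50, 4.81 and 4.58 CPM in the Adrb1-A187V;PS19 mice. All 4 Adrb1-A187V;PS19 values exceeded the highest PS19 value, 4.39 CPM, with a log2 fold change of 0.23 ± 0.15 (SE). With counts of 51 to 94 per mouse, sampling alone gives a coefficient of variation of 10.9% in the Adrb1-A187V;PS19 mice, and the measured one was 2.97%, a spread below that of counting alone. Htr5a (chromosome 5, 27842149 to 27855088) had 19.0, 22.9, 27.8 and 21.6 CPM in the PS19 mice and 21.8, 26.0, 22.5 and 24.2 CPM in the Adrb1-A187V;PS19 mice. These ranges overlapped, and the log2 fold change, 0.05 ± 0.11 (SE), turned negative without m677 (-0.03) or m661 (-0.0038).

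Of the Gq/11-coupled pair, Htr2a (chromosome 14, 74640840 to 74709494) had 24.9, 49.7, 41.2 and 44.2 CPM in the PS19 mice and 39.7, 37.4, 33.9 and 49.8 CPM in the Adrb1-A187V;PS19 mice. PS19 mouse m677 was the lowest of all and the other mice of both genotypes lay in 1 range. The log2 fold change was 0.01 ± 0.17 (SE), -0.16 without m677 and -0.11 without m658. Htr2c (X chromosome, 146962513 to 147197277), which limits food intake and is edited in its RNA, had the most counts of the family, 738 to 1403 per mouse. It had 45.2, 54.8, 36.3 and 52.9 CPM in the PS19 mice and 59.4, 49.3, 45.1 and 79.4 CPM in the Adrb1-A187V;PS19 mice, for a log2 change of 0.30 ± 0.16 (SE). The genotypes overlapped, and m658 stood above the other 7 mice; without it the log2 fold change was 0.12. Without PS19 mouse m668 or Adrb1-A187V;PS19 mouse m661 or m660 it was 0.38, 0.38 and 0.41, with unadjusted p-values of 0.0434, 0.0407 and 0.0223 from edgeR's quasi-likelihood test, so the side of the threshold rested on single mice. The small RNA genes inside introns of Htr2c, among them Mir448, Mir764, Mir1264, Mir1298 and Mir1912, share no exonic base with it and had at most 2 counts in a mouse.

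Of the Gs-coupled genes, Htr4 (chromosome 18) had 37, 59, 52 and 39 counts in the PS19 mice against 55, 56, 47 and 100 in Adrb1-A187V;PS19. In CPM this was 2.27, 4.07, 2.45 and 2.35 against 3.30, 2.68, 2.63 and 5.66. Mouse m668 of the PS19 group and m658 of the other group were high in their genotypes, the ranges overlapped, and the genotypes differed by 0.36 ± 0.28 (SE) on the log2 scale. This difference was 0.05 without m658 and 0.59 without m668. Htr7 (chromosome 19, 35958734 to 36057507), a receptor linked to sleep and circadian phase, had 10.2, 8.28, 8.83 and 11.9 CPM in the PS19 mice and 10.1, 10.9, 9.57 and 10.9 CPM in the Adrb1-A187V;PS19 mice. All 4 Adrb1-A187V;PS19 values lay inside the range of the PS19 mice, and the log2 fold change was 0.09 ± 0.13 (SE).

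Htr3a (chromosome 9, 48899213 to 48911099) encodes the subunit that every serotonin-gated channel needs. It had 5.57, 5.25, 5.81 and 7.11 CPM in the PS19 mice and 5.16, 4.93, 4.87 and 4.75 CPM in the Adrb1-A187V;PS19 mice. All 4 Adrb1-A187V;PS19 mice were below the lowest PS19 mouse, m668, by a narrow margin, with a log2 fold change of -0.27 ± 0.15 (SE). Without m659, the highest mouse, it was -0.17. The coefficient of variation was 3.45% in the Adrb1-A187V;PS19 mice, where counts of 76 to 123 per mouse over both genotypes leave 10.5% from sampling alone. Vip, a neuropeptide of the same CGE interneurons, had a log2 fold change of -0.19 ± 0.08 (SE) and an unadjusted p of 0.0353; of the 10 CGE markers tested 2 were higher and 8 lower, with a median of -0.11, and their part in the Htr3a values was not tested.

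The intervals show which changes these 8 mice leave possible. The 95% interval of the fold between genotypes ran from 0.879 to 1.21 for Htr5a, the narrowest of the 9, and from 0.879 to 1.28 for Htr7. It ran from 0.973 to 1.57 for Htr2c, from 0.668 to 1.03 for Htr3a and from 0.936 to 1.48 for Htr1f. It was widest for Htr4, from 0.843 to 1.96. In this fit of all 8 mice, a doubling or a halving was therefore outside the interval of each of the 9 genes, for Htr4 by a narrow margin. The log2 fold change of Htr4 was 0.59 without m668, so its upper limit depended on single mice. Smaller changes were not excluded by a p-value above the threshold.

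**Figure D3:**
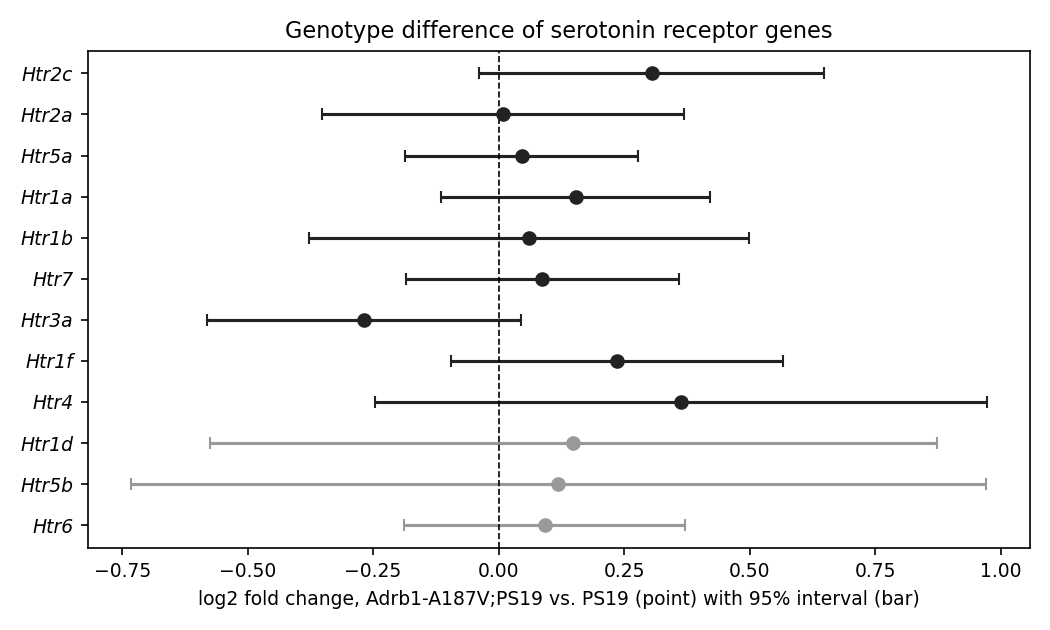
Log2 fold change of each serotonin receptor gene in Adrb1-A187V;PS19 vs. PS19 mice, with its 95% interval from edgeR's quasi-likelihood fit. Black points are the 9 receptor genes and gray points Htr6, Htr5b and Htr1d; every interval includes 0, and those of Htr2c (from -0.04) and Htr3a (to 0.04) come nearest to leaving it out.

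Among the other receptor genes, Htr6, a Gs-coupled receptor of the striatum and cortex, had 7.43 ± 0.687 CPM in PS19 and 7.91 ± 0.834 CPM in Adrb1-A187V;PS19 mice (SD, n = 4 each). Per length it had 3.28 CPM per kb, between Htr1a and Htr1b. Htr1d and Htr5b were low and variable, at 1.68 to 5.82 CPM and 0.623 to 2.16 CPM over the 8 mice. The log2 fold changes of Htr6, Htr1d and Htr5b were 0.09, 0.15 and 0.12 with standard errors of 0.13, 0.34 and 0.40. Htr2b, with 3 to 14 counts per mouse, and Htr3b, with at most 3, did not pass the filter. Of the exons of Htr2b, 252 bases are shared with Psmd1 on the other strand, a gene with up to 2356 counts. Htr3b, the partner subunit of Htr3a, had 0 counts in 6 of the 8 mice, which allows up to 3 counts in each of them.

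The receptor genes varied between mice by different amounts. The biological coefficient of variation estimated by edgeR was 25.6% for Htr4, 19.6% for Htr1b, 16.7% for Htr2a and 15.8% for Htr2c. For the other 5 genes it lay between 10.6% for Htr5a and 12.1% for Htr1a, near the median of 10.1% over all genes tested. The 4 variable genes were high together in Adrb1-A187V;PS19 mouse m658, which had the highest value of all 8 mice for each of them. PS19 mouse m668 was close to m658 for Htr2a (49.7 against 49.8 CPM) and Htr1b (19.1 against 19.5 CPM). It was lower for Htr4 (4.07 against 5.66 CPM) and Htr2c (54.8 against 79.4 CPM). Of the 36 pairs of receptor genes, 18 had a positive and 18 a negative Pearson correlation of log2 CPM over the 8 mice. The highest were Htr2c with Htr4 (r = 0.84, exact permutation p = 0.00831; rho = 0.71, exact permutation p = 0.0576) and Htr1b with Htr4 (r = 0.83, exact permutation p = 0.00799; rho = 0.67, exact permutation p = 0.0831). The lowest was Htr1a with Htr1b (r = -0.76, exact permutation p = 0.0287; rho = -0.64, exact permutation p = 0.0962). None passed after adjustment over the 36 pairs, with adjusted p-values of 0.15, 0.15 and 0.258. Without the 2 mice farthest from the median of the first gene, r was 0.65, 0.54 and -0.89.

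**Figure D4:**
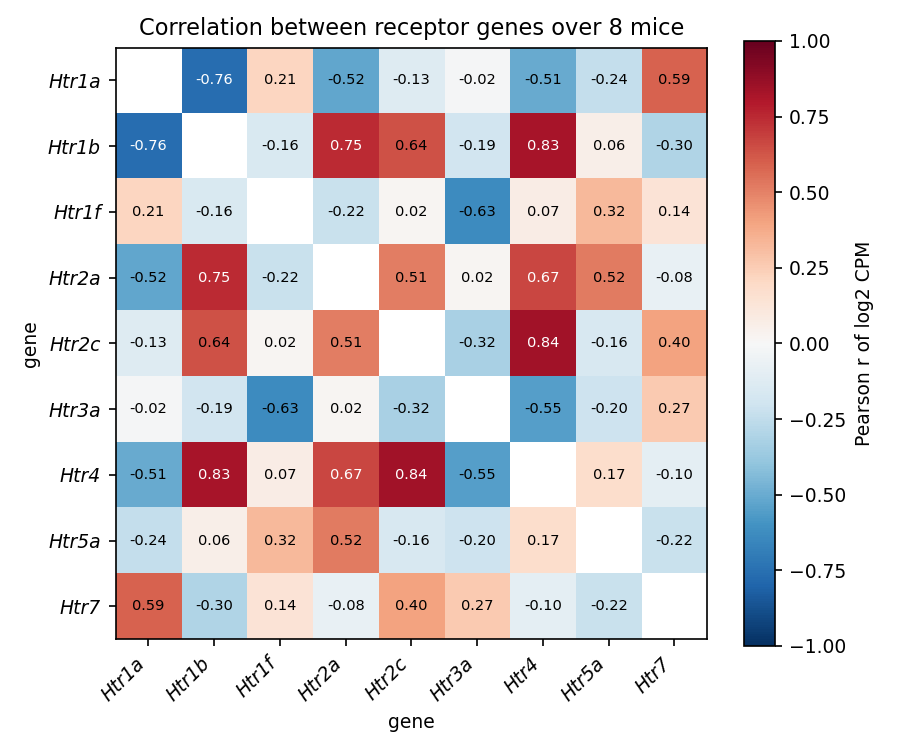
Pearson correlation of log2 CPM between each pair of the 9 receptor genes over 8 mice, from -1 (blue) to 1 (red). Htr1b, Htr2a, Htr2c and Htr4 form the block of positive values, up to 0.84, and Htr1a is negative with Htr1b at -0.76; no pair passed after adjustment over 36 pairs.

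Each receptor gene was also set beside the score of 1 list of marker genes, chosen from where the receptor is known to be expressed. The score of a mouse is the mean over the list of log2 CPM minus each gene's mean over the 8 mice. Of the 9 relations, 3 passed. The share of all genes tested that follow these scores as closely was not determined, so the count does not set the receptors apart. Htr1b rose with the score of the 12 striatal markers (r = 0.85, exact permutation p = 0.0109, adjusted p = 0.0475 over 9 relations; rho = 0.71, exact permutation p = 0.0576, adjusted p = 0.173), and r was 0.84 without m671 and m677, the mice farthest from the median score. Htr4 rose with the same score (r = 0.78, exact permutation p = 0.0158, adjusted p = 0.0475; rho = 0.86, exact permutation p = 0.0107, adjusted p = 0.0964), with r = 0.83 without the same mice. With deviations from the genotype means in place of the values, r of Htr4 was 0.74 and no longer passed (adjusted permutation p = 0.0916). Htr2c rose with the score of the 9 choroid plexus markers tested (r = 0.82, exact permutation p = 0.01, adjusted p = 0.0475; rho = 0.76, exact permutation p = 0.0368, adjusted p = 0.165). Without m658 and m668, which held the most choroid plexus marker counts, its r was 0.57, so the relation rested in part on these mice. No rank correlation passed after adjustment. Mice m658 and m668 were high on both scores, with 0.47 and 0.42 for the striatal and 1.85 and 0.97 for the choroid plexus markers. Each receptor was set beside 1 list only, and its relation to the other list was not tested. These relations therefore do not tell striatal from choroid plexus RNA.

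The summed choroid plexus level was 609.7 CPM in m658, 385.1 CPM in m668 and 155.7 CPM in m659, and 30.7 to 79.8 CPM in the other 5 mice. Ttr, transthyretin, was the most abundant of these markers, with a mean of 141.1 CPM. Without both m658 and m668, a comparison chosen after the data were seen, Htr2c had a log2 fold change of 0.19 with an unadjusted p of 0.168 in edgeR's quasi-likelihood test, and 0 of the 9 receptor genes passed. The summed striatal level was 2175 CPM in m671, 1936 CPM in m668, 1826 CPM in m658 and 975.2 to 1484 CPM in the other 5 mice. All 12 striatal markers had a log2 fold change above 0 (median 0.34), among them Pde10a and Ppp1r1b, the most abundant, with 0.19 and 0.27, and the transcription factor genes Isl1 and Six3 had an unadjusted p-value under 0.05. Over all genes tested, 50.2% were above 0 and 2.80% had an unadjusted p-value under 0.05 in edgeR's quasi-likelihood test. The part of striatal and choroid plexus RNA in the genotype values of Htr1b, Htr4 and Htr2c was not tested.

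**Figure D5:**
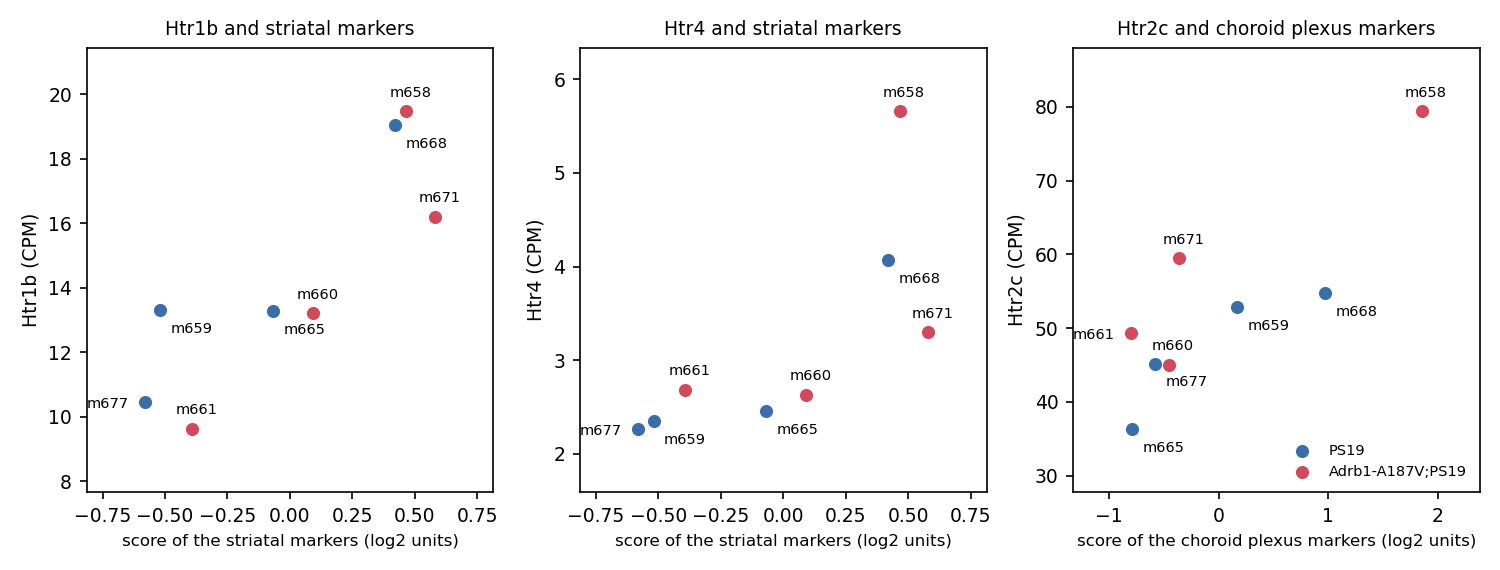
CPM of Htr1b and Htr4 against the score of 12 striatal markers and of Htr2c against the score of 9 choroid plexus markers, 1 point per mouse, blue for PS19 and red for Adrb1-A187V;PS19. The mice m658, m668 and m671 have the 3 highest striatal scores and the 3 highest values of Htr1b and Htr4, and m658 is highest for Htr2c and for the choroid plexus score.

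The other 6 relations did not pass. With the score of cortical excitatory neuron markers, r was -0.38 for Htr1f, 0.17 for Htr2a and 0.42 for Htr5a (exact permutation p = 0.34, 0.696 and 0.300). It was 0.09 for Htr1a with hippocampal markers, 0.38 for Htr3a with CGE interneuron markers and 0.43 for Htr7 with thalamic markers (exact permutation p = 0.834, 0.38 and 0.287). Their rho values were -0.48, 0.12, 0.36, -0.17, 0.12 and 0.52 in the same order, with exact permutation p-values of 0.243, 0.793, 0.389, 0.703, 0.793 and 0.197. Without the 2 mice farthest from the median score, r was -0.44 for Htr1f, 0.69 for Htr2a, 0.57 for Htr5a, 0.55 for Htr1a, -0.50 for Htr3a and 0.56 for Htr7. The values of Htr2a, Htr1a and Htr3a moved the most, and that of Htr3a changed sign.

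Of 6 markers of serotonin neurons, 5 had few counts. Tph2, the rate-limiting enzyme of serotonin synthesis in neurons, had 5 to 27 counts per mouse, the serotonin transporter gene Slc6a4 at most 6, and Fev, the transcription factor of serotonin neurons, at most 6. Gata3 and En1 had at most 4 and 1. The other, Slc18a2, the vesicular transporter of all monoamines, had 46 to 108 counts per mouse and a mean of 4.18 CPM. Tph2 was 0.722 CPM in PS19 and 1.20 CPM in Adrb1-A187V;PS19 mice on average, for a log2 change of 0.71 ± 0.34 (SE) and an unadjusted p of 0.0561. Of the 7 tested genes of synthesis and its cofactor tetrahydrobiopterin, 3 were higher and 4 lower, with none under the threshold and Qdpr and Pts the most abundant. Of the 6 tested genes of storage, uptake and breakdown, 5 were higher and 1 lower, and 1 passed the unadjusted threshold: Maob, a monoamine oxidase, had 24.3 CPM in PS19 and 27.8 CPM in Adrb1-A187V;PS19 mice, for a log2 change of 0.19 ± 0.08 (SE) (unadjusted p = 0.0286). Maoa, which prefers serotonin as its substrate, had -0.04 ± 0.08 (SE), and Aldh2, the most abundant gene of this list, 0.01 ± 0.06 (SE).

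Downstream of the receptors, 21 genes of G protein α subunits and effectors split into 8 higher and 13 lower, with a median of -0.0053 on the log2 scale. The 2 most abundant, Itpr1, the inositol trisphosphate receptor, and Gnao1, the main Go subunit of neurons, had -0.01 and 0.04 with standard errors of 0.09 and 0.04. Gnal, the Golf subunit that is abundant in the striatum, was the only one of the 21 with an unadjusted p-value under 0.05: it had a log2 fold change of 0.26 ± 0.12 (SE) (unadjusted p = 0.0455). Of the 12 receptor partners and regulators, 6 were higher and 6 lower and none passed. Ric3, a chaperone of the Htr3a channel, came nearest with 0.12 and a standard error of 0.06 (unadjusted p = 0.0526), followed by S100a10, which binds the Htr1b and Htr4 receptors, with -0.21 and 0.11 (unadjusted p = 0.0776). The most abundant were Dlg4, the PSD-95 gene, and Rgs4, with log2 fold changes of -0.02 and -0.02. None of the genes named here passed after adjustment.

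Over the remaining marker lists, 4 of 10 cortical excitatory neuron markers passed the unadjusted threshold, which 2.80% of all genes tested passed. Slc17a7, Neurod6 and Tbr1 fell by 0.19, 0.27 and 0.13 on the log2 scale and Foxp2 rose by 0.30, with a median of -0.10 for the list. All 7 basal forebrain cholinergic markers passed and were higher, with a median of 0.69, and Slc5a7 and Chat, the most abundant, had 10.8 and 6.26 CPM. Of all genes tested, 1.42% passed as higher. The lists were chosen with earlier results of these data known, so this count is not an independent finding. None of 8 hippocampal, 8 thalamic, 9 choroid plexus and 12 glial and vascular markers passed, with medians of -0.10, 0.11, 0.35 and 0.0038. The most abundant of the hippocampal, thalamic, choroid plexus and CGE markers were Cabp7 and Fibcd1, Slc17a6 and Prkcd, Ttr and Kl, and Cnr1 and Reln. Prnp and Mapt, whose promoter and whose human form make the transgene, had -0.06 and -0.05 with standard errors of 0.05 and 0.04. No adjusted p-value was under 0.05 for any of these genes, and their part in the receptor values was not tested.

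The genes whose pattern over the 8 mice was most like that of each receptor were taken from about 12133 genes with at least 5 CPM, by Pearson's r of log2 CPM. Each is the highest of a large search over 8 mice, and r is given as a description with no test. Htr1b was most like Zfp668, Bcl11b and Ric8b (r = 0.98 for each), of which Bcl11b is a transcription factor of striatal and deep-layer cortical neurons. Htr4 was most like Alcam, Car12 and Scg2 (0.96, 0.95 and 0.95). Htr2c was most like Ankrd11, Nsun5 and Clip4 (0.98, 0.96 and 0.96), and Htr2a like Samd8, Trim2 and Elmo2 (0.98, 0.97 and 0.96). Htr1a went with Mycl, Ndrg2 and Pcdhga1 (0.96, 0.95 and 0.94), Htr1f with Kbtbd4, Cops2 and Mid2 (0.95, 0.94 and 0.94) and Htr5a with Kcnh7, Dync1li2 and Itgav (0.96 for each). Htr3a went with Syvn1, Slc45a4 and Mamld1 (0.95, 0.94 and 0.94), and Htr7 with Ptprm, Tsr2 and Tcte2 (0.96, 0.94 and 0.93). None of these 27 genes is a choroid plexus or striatal marker of the lists above. Some markers, such as Prlr (4.89 CPM) and Folr1 (1.33 CPM), were below the limit of the search. Only 3 genes per receptor were kept from so many, so no conclusion is drawn from this absence.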

How the data were processed

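RNA from dissected cortex was sequenced by the authors with paired-end reads, 1 library per mouse. Per the labels and methods, the authors aligned reads to GRCm38 with HISAT2 2.0.5, counted them per Ensembl gene with featureCounts 1.5.0-p3 and deposited raw counts without normalization; the strand and multiple-mapping settings are not named. Replicates of a genotype differed by more than sampling noise (chi-square of 4.50 to 9.20 per degree of freedom). Depth was 14653222 to 21223754 counts per mouse. The mice are the units of every test, so p-values weigh a result against the variation between these mice. The labels give no batch or litter.

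From the counts, edgeR 4.0.16 in R 4.3.3 kept 17195 of 54532 genes (filterByExpr), scaled them with TMM factors and compared genotypes with glmQLFit and glmQLFTest, 2-sided, no covariates. The standard error is the log2 fold change divided by the square root of F. Log2 CPM used a prior count of 2. The fit was tested on simulated counts. GENCODE vM21 exons (GRCm38) gave overlapping genes.

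The receptors and the 15 other gene lists were chosen with earlier results of these data known. Genes named are the receptors, in each list those with an unadjusted p-value under 0.05, the 2 most abundant or those that define a cell type, the 3 most alike per receptor, and Adrb1, Mapt and Prnp; Ric3, S100a10, D430036J16Rik, Psmd1 and the small RNAs of Htr2c were named after their values were seen. Some genes that this rule takes are not reported here. Alternatives were DESeq2 1.42.0, limma-voom (limma 3.58.1), DESeq2's size factors, other count filters, protein-coding genes alone and each mouse left out.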

Additional observations from a re-analysis of the deposited data

Results flagged for a closer look

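In 50 groups of 4 mice (tested receptor genes and scores of gene lists, not of marker lists alone, in each genotype), 1 mouse lay far from the other 3 in 4 groups, where chance gives about 1 in 20. Htr4 had 4.07 CPM in PS19 mouse m668 against 2.27 to 2.45 CPM in the other PS19 mice, a gap that took 0.896 of the whole PS19 range. Htr1d had 5.11 CPM in the same mouse against 2.82 to 3.01 CPM, a gap of 0.915. Htr6 had 6.66 CPM in Adrb1-A187V;PS19 mouse m660 against 8.26 to 8.38 CPM, a gap of 0.931. The score of the choroid plexus markers was 1.85 in Adrb1-A187V;PS19 mouse m658 against -0.80 to -0.36 in the other 3, a gap of 0.836. The 4 flagged values come from 3 mice, and no other value was flagged.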

How the results depend on the processing

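Htr1a, Htr1f, Htr2c, Htr3a and Htr4 kept the direction of their log2 fold change under every alternative run. Signs turned only when mice were left out: the fold changes then ran from -0.11 to 0.24 for Htr1b, from -0.16 to 0.13 for Htr2a and from -0.031 to 0.16 for Htr5a, and without both m658 and m668 that of Htr7 was -0.0078. The number of receptor genes with an unadjusted p-value under 0.05 was 0 under 6 of the 7 alternatives that kept a genotype's 4 mice or left out both m658 and m668, and 0 to 1 over the fits that each left out 1 mouse. It was 1 with no filter beyond 1 count, where Htr2c had a log2 fold change of 0.31, an unadjusted p of 4.19e-05 and an adjusted p of 0.0251 in edgeR's quasi-likelihood test; over the other alternatives its unadjusted p ran from 0.0223 to 0.381. That setting called 1366 of 33614 genes, against 481 of 17195, and 66 after adjustment; the cause was not tested. The levels per length moved by less than 1 SD, and their order held under DESeq2's size factors and without 5 of the 8 mice. With deviations from the genotype means, r of Htr4 with the striatal markers was 0.74 (adjusted permutation p = 0.0916), r of Htr1f with the cortical markers was 0.0030 in place of -0.38, and those of Htr1b and Htr2c were 0.91 and 0.89. No paired analysis was possible because each mouse has its own number and no litter is named. Counts of 37 to 123 per mouse limit the precision for Htr4, Htr1f and Htr3a. For Htr4 the spread between mice, 30.9% and 40.0% in the 2 genotypes, was above the 14.6% and 12.5% from counting alone.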
